A study of Mus musculus with 47 samples.

Results

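The alarmin cytokines IL-33 and TSLP and their relatives of the IL-1 family were followed in mouse lung after ragweed challenge. The genes were Il33, Tslp, Il1rl1, Il1rn, Il1a, Il1b and Il18, and every probe set annotated to one of them in any of the 6 array tables was taken, called or not. Of the 7 genes, 6 had such a probe set, out of 16365 genes with a probe set of their own. Il1rl1, the gene of the IL-33 receptor chain ST2, had none annotated to it here and is only named. The 6 genes were covered by 9 probe set IDs of 49372, and these gave 16 entries over the tables.

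Gene expression was measured with Affymetrix murine U74 arrays, on total RNA of lung. Sensitization took place on days 0 and 3, and intratracheal challenge on days 10 and 17. The groups were ragweed at 24 h, PBS at 24 h, ragweed at 72 h and PBS at 72 h after the last challenge, with 2 samples in each, 1a and 1b. The ragweed groups received ragweed pollen protein, given with alum at sensitization, and the PBS groups received PBS at every step. The labels name alum for the ragweed mice only, so alum is not separated from ragweed. Strain, age and sex are not given. Nothing states that 1a and 1b came from different mice, so a p-value here reflects only how far such samples spread, and that spread may be technical.

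Arrays A, B and C of the set exist in 2 versions. The main comparison used first-version A and version 2 B and C, on which all 4 groups were run; the other version of each array gave a repeat hybridization of the same sample codes. Version 2 A was analysed here without ragweed at 24 h. Intensity is in arbitrary units on a common scale with a trimmed mean of 800, and values below a floor at the 40th percentile of each table were set to the floor before the log2 step. A probe set was called where its adjusted p was under 0.05 in limma, with Benjamini-Hochberg adjustment over all 25250 probe sets tested on the 3 main tables. The lung label was borne out by the surfactant gene Sftpc, at 50946 to 71315, and by the club cell secretoglobin Scgb1a1, at 30595 to 80239 over the 8 samples. The first-version PBS arrays were deposited at trimmed means of 79.6 to 373, against about 800 for every other array counted here, so scaling and treatment cannot be told apart on the first version.

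IL-33 is kept in the nucleus of barrier cells and is released when they are damaged. It signals through ST2, paired with the shared IL-1 receptor accessory protein, to group 2 innate lymphoid cells, Th2 cells, mast cells and basophils. TSLP is an epithelial cytokine that acts on dendritic cells and type 2 lymphocytes through its own receptor chain and the IL-7 receptor chain. IL-1α and IL-1β share a receptor that drives NF-kB, the IL-1 receptor antagonist encoded by Il1rn blocks it, and IL-1β and IL-18 are cut to their active forms by inflammasome caspase-1. In the mouse lung, alveolar type II cells are a main constitutive source of IL-33.

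Il33 was the one member called at 24 h, and its log2 difference there was the largest of the 6 measured members on the main tables. On the other array version Il33 and Tslp alone could be compared at 24 h. It has 2 annotated transcription starts on chromosome 19. Because it carries the main result, the window around each start is shown from RefSeq (GRCm38.p6, plus strand), with each TATAAA in capitals; the arrays do not tell transcripts from these starts apart.
Il33 start 1, chr19:29924863-29925162: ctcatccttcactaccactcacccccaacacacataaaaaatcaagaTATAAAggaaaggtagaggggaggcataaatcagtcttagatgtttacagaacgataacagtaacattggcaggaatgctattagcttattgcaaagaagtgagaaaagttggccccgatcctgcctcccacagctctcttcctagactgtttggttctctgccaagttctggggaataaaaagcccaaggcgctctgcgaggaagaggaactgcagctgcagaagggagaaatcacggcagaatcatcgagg
Il33 start 2, chr19:29945540-29945839: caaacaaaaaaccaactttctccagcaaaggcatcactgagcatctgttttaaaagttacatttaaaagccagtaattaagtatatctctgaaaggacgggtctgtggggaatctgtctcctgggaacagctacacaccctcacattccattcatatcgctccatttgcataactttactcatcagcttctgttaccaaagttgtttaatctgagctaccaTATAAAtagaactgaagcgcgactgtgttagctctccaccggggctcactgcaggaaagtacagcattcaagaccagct
Counted from each start, the match lies at -203 to -198 in the first window and at -29 to -24 in the second. TATAAA on either strand was in 13.6% of the 32851 promoter windows of this length. The letters TGANTCA of AP-1 (7.81% of windows), TTCNNNGAA of the STAT element GAS (8.3%) and the NF-kB consensus (8.46%) were searched on both strands and were in neither window. Among the other members, Il1a and Il1b each had TATAAA close upstream of a start, beginning at -32 and -31, and TGANTCA was in windows of Il1a and Il1rn. A match of letters is a description of the window and no test of binding.

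Il33 was about as bright in both PBS groups and brighter in both ragweed groups. Probe set 113122_i_at on version 2 B had intensities of 12849 and 13290 in ragweed lungs at 24 h, against 6129 and 4865 in PBS lungs at 24 h. At 72 h it had 7343 and 8398 in ragweed lungs, against 5873 and 4408 in PBS lungs. Both ragweed samples lay above both PBS samples at each time, and the ragweed samples of 24 h stood highest of all 8.

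At 24 h Il33 rose by 1.26 ± 0.21 on the log2 scale (SE; 95% interval 0.80 to 1.72), a 2.39-fold difference, with an adjusted p of 0.0373. At 72 h the difference was 0.63 ± 0.21 (95% interval 0.17 to 1.08) and was not called (adjusted p = 0.317). Over both times the mean difference was 0.94 ± 0.15 (adjusted p = 0.0182), which was called. Called probe sets made up 0.23% of those tested at 24 h, 0.527% at 72 h and 0.65% for the mean of both times, so 1 called member probe set of 8 fitted stands against a low background. Neither call held in any fit that left out 1 of the 8 samples. The difference was then 1.09 to 1.43 at 24 h and 0.84 to 1.05 for the mean. Without either PBS sample of 72 h the difference at 24 h stayed at 1.26, because those samples enter it only through the shared spread.

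The first-version B arrays, hybridized apart from version 2, again had ragweed above PBS at each time and ragweed of 24 h above ragweed of 72 h, while the order of the 2 PBS groups differed. On them 113122_i_at had 11632 and 12614 in ragweed lungs at 24 h, against 5256 and 5134 in PBS lungs. At 72 h it had 9695 and 11137 in ragweed lungs, against 5953 and 4945 in PBS lungs. Il33 was called there at both times, by 1.22 ± 0.15 at 24 h (adjusted p = 0.0435) and by 0.94 ± 0.15 at 72 h (adjusted p = 0.0367), where called probe sets made up 0.0355% and 0.44% of those tested. The PBS arrays of first-version B were scaled up by 5.80 to 9.31 times to reach the common level, while the ragweed arrays needed almost no scaling.

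Whether Il33 subsided between the 2 times was less clear than its rise. On version 2 B it averaged 13070 ± 312 in ragweed lungs at 24 h and 7870 ± 746 at 72 h (SD, n = 2 each), with no overlap. The ragweed samples differed by -0.73 ± 0.21 between 72 h and 24 h (adjusted p = 0.222), and on first-version B by -0.22 ± 0.15 (adjusted p = 0.841). The difference between the ragweed effects, 72 h minus 24 h, was -0.63 ± 0.29 on version 2 B (95% interval -1.28 to 0.01, adjusted p = 0.689) and -0.28 ± 0.21 on first-version B (adjusted p = 0.889). Of all probe sets, 0.305% were called between the ragweed times and 0.0356% for the difference of the effects. None of these values of Il33 passed the test, so the order of the ragweed times was the same on both versions and its size was not fixed by these data. PBS lungs averaged 5497 ± 894 at 24 h and 5141 ± 1036 at 72 h on version 2 B, and their samples overlapped.

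The second Il33 probe set, 113123_r_at, was designed from the same expressed sequence as the first, so it is no independent gene measure. On version 2 B it had 3396 and 2926 in ragweed lungs at 24 h, against 1323 and 1588 in PBS lungs, and 1968 and 1459 in ragweed lungs at 72 h, against 1416 and 945 in PBS lungs. Its differences were 1.12 ± 0.27 at 24 h (95% interval 0.54 to 1.70, adjusted p = 0.181) and 0.55 ± 0.27 at 72 h (adjusted p = 0.555). On first-version B the ragweed samples of 24 h both gave 1560, against 811 and 867 in PBS lungs, a difference of 0.90 ± 0.36 (adjusted p = 0.707), and at 72 h the groups overlapped, with 707 and 1246 in ragweed lungs and 895 and 692 in PBS lungs. It was thus in the same direction as the first probe set throughout and was not called.

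**Figure D1:**
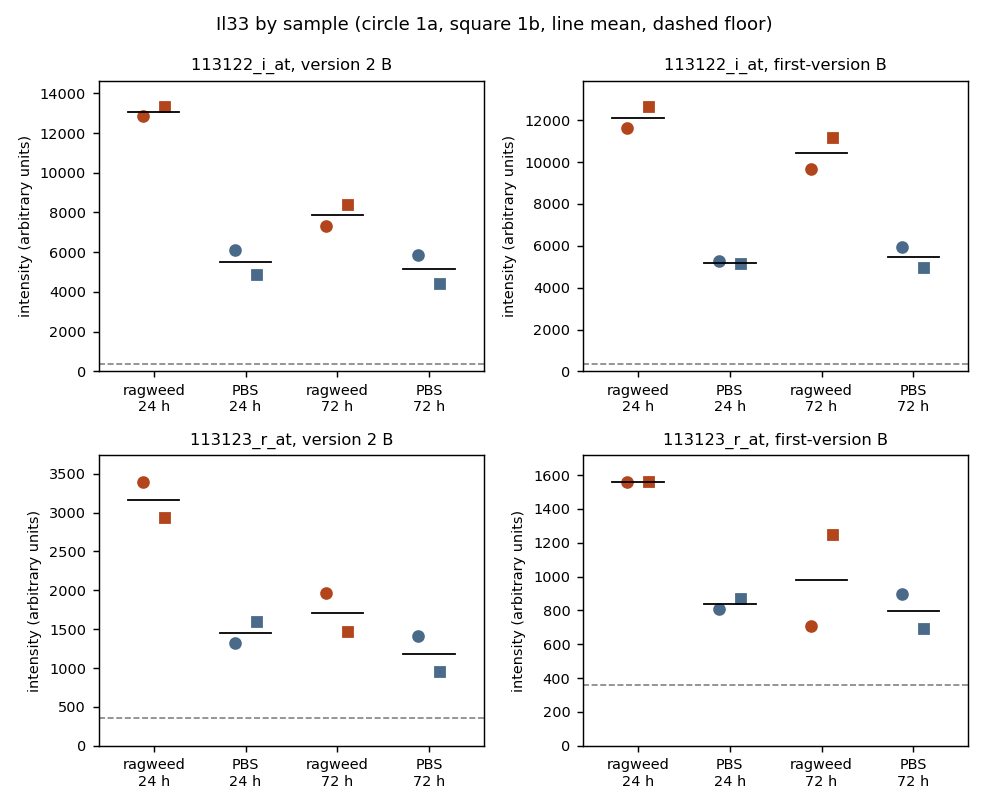
Intensity of the 2 Il33 probe sets (rows) on version 2 B (left) and first-version B (right) in each sample, with circles for 1a, squares for 1b, a line at each group mean and a dashed line at the floor. The ragweed samples of 24 h lie above all PBS samples in every panel, for example at 12849 and 13290 against 4408 to 6129 in the top left panel.

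Other measures of these arrays are set beside Il33. The ratio of the 3' to the 5' probe set of β-actin, a measure of RNA integrity and labelling, was 1.09 and 1.08 in ragweed lungs at 24 h on version 2 B, against 0.708 and 0.465 in PBS lungs, and 1.10 and 0.831 against 0.919 and 0.813 at 72 h. On first-version B the ratio ran from 0.823 to 1.25 over the 8 arrays and overlapped at 24 h, at 1.14 and 1.01 in ragweed lungs against 0.823 and 1.23 in PBS lungs. The part of this ratio in the Il33 values was not tested. With the PBS samples of 72 h in place of those of 24 h, the Il33 difference at 24 h was 1.36 (adjusted p = 0.0224).

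Club cells, the secretory cells of the airway, had calls in the same comparisons. Of 7 measured markers of 8, 2 were called higher at 24 h and 2 lower at 72 h. The list's median differences were 0.19 and -0.17. At 24 h, 3 markers were higher and 1 lower at an unadjusted p under 0.05. Scgb1a1 had 71315 and 80239 in ragweed lungs at 24 h, against 30595 and 32315 in PBS lungs, a difference of 1.27 ± 0.12 (adjusted p = 0.00404). Cyp2f2, a cytochrome P450 of club cells, had 10904 and 10155 in ragweed lungs at 24 h, against 6351 and 7065 in PBS lungs (0.65 ± 0.09, adjusted p = 0.0367), and 12420 and 12024 against 21306 and 21531 at 72 h (-0.81 ± 0.09, adjusted p = 0.00894). Selenbp1, which encodes a selenium-binding protein, differed by -1.13 ± 0.11 at 72 h (adjusted p = 0.00571). At 24 h it was lower too, without a call, at 3628 and 3306 in ragweed lungs against 4794 and 5201 in PBS lungs. Gstt1, another marker of the list, had 1200 and 1087 against 1494 and 1353 at 24 h. Scgb3a2, a second secretoglobin, differed by 1.08 ± 0.30 at 24 h and -1.32 ± 0.30 at 72 h and was not called (adjusted p = 0.261 and 0.104).

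With the PBS samples of 72 h in place of those of 24 h, Scgb1a1 differed by 0 and Cyp2f2 by -1.03 at 24 h, so these rises rest on the PBS lungs of 24 h. The 0 of Scgb1a1 comes from rank. Quantile normalization gives equal ranks equal values, and Scgb1a1 took 71315 or 80239 in every sample outside PBS at 24 h. It therefore does not measure how far those groups differed. Likewise Cyp2f2 at 72 h differed by 0.87 against the PBS samples of 24 h, and with scaling alone in place of quantile normalization Scgb1a1 differed by 0.95 at 24 h and was not called (adjusted p = 0.307). Leaving out 1 sample ended the Cyp2f2 call of 24 h in all 8 fits, and those of Scgb1a1 at 24 h and of Cyp2f2 and Selenbp1 at 72 h in 4 of 8 each. The 7 markers summed to 105816 to 114041 in ragweed lungs at 24 h, against 60036 to 64170 in PBS lungs at 24 h and 117613 to 127658 in PBS lungs at 72 h. Most of that sum was Scgb1a1, and the other 6 summed to 33802 to 34501 in ragweed lungs at 24 h, against 29441 to 31855 and 46298 to 47419 in those PBS groups.

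The alveolar type II list, with 11 of 12 markers measured, summed to 198374 to 215480 in ragweed lungs at 24 h, against 208454 to 214527 in PBS lungs, and to 185066 to 185934 at 72 h, against 179779 to 183020. None of the 11 was called at either time. Much of each sum came from Sftpc and Lamp3. The differences ran from -0.49 to 0.48 at 24 h (median 0.01) and from -0.47 to 0.85 at 72 h (median 0.05). At an unadjusted p under 0.05, 2 were higher and 0 lower at 24 h, and 1 higher and 0 lower at 72 h. Sftpa1, named after its values were seen, had 9169 and 6905 in ragweed lungs at 24 h, against 5983 and 5431 in PBS lungs. At 72 h it had 6881 and 7340.5, against 4682 and 3329. The squamous epithelium list, with 14 of 20 markers measured, summed to 50188 to 61181 in ragweed lungs and 59283 to 60570 in PBS lungs at 24 h, and to 42917 to 59491 in ragweed lungs and 86151 to 94595 in PBS lungs at 72 h. The keratins Krt13 and Krt4, with Sbsn and Lce3a, were called lower at 72 h. Sbsn, at 997 and 700 in ragweed lungs of 72 h, was also below the PBS lungs of 24 h, at 1285 and 1240. Against the PBS samples of 24 h Krt13 and Krt4 differed by 0.19 and 0.28 in place of -1.40 and -1.47, so these keratin calls rest on the PBS lungs of 72 h. Heart and striated muscle markers, 15 of 16 measured, likewise summed highest there, to 23621 to 24801 in ragweed lungs and 38121 to 41135 in PBS lungs at 72 h, and to 23260 to 25822 and 19280 to 19856 at 24 h. Of these, Acta1, the skeletal muscle actin, was called higher at 24 h (1.64 ± 0.13, adjusted p = 0.00127), and differed by -0.30 against the PBS samples of 72 h. The muscle markers did not move together at 24 h, with 6 higher and 4 lower at an unadjusted p under 0.05. Their median difference was 0.07. Myl7 had 704 and 760 in ragweed lungs at 24 h, against 1505 and 1712 in PBS lungs. Myh6, a heart myosin, had 423 and 642 against 940 and 1171. The atrial genes Myl7 and Nppa were called lower at 72 h (-1.31 ± 0.17 and -1.48 ± 0.14, adjusted p = 0.0209 and 0.00399), calls that leaving out 1 sample ended in 8 and 4 of 8 fits. No marker of these lists was at 0 in any sample. In bulk RNA, fewer cells of a type and less RNA per cell cannot be told apart, and the part of cell composition in the Il33 result was not tested.

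Tslp, the other epithelial alarmin, showed no difference that its samples could resolve. Probe set 140650_at on version 2 C had 514 and 225 in ragweed lungs at 24 h, against 208 and 748 in PBS lungs, and 309 and 999 in ragweed lungs at 72 h, against 711 and 693 in PBS lungs. The groups overlapped at both times, and 6 of the 8 values were above the floor of 245. The differences were -0.27 ± 0.79 at 24 h (95% interval -2.08 to 1.54) and -0.34 ± 0.79 at 72 h (-2.15 to 1.47), with adjusted p of 0.972 and 0.949.

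On first-version C Tslp had 929 and 561 in ragweed lungs at 24 h, against 286 and 849 in PBS lungs, and 1072 and 671 in ragweed lungs at 72 h, against 900.5 and 321 in PBS lungs. Its differences there were 0.55 ± 0.72 and 0.66 ± 0.72 (adjusted p = 0.929 and 0.788), opposite in sign to version 2. The intervals reach beyond 1 on the log2 scale in both directions on version 2, so a change as large as that of Il33 at 24 h was not detectable for Tslp on these arrays.

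The remaining ligands and the antagonist lay close to the floor, and none was called. Il1a encodes IL-1α, a cytokine that is active without inflammasome cleavage. Probe set 94755_at on first-version A had 526 and 411 in ragweed lungs at 24 h, against 395 and 392 in PBS lungs, and 361 and 408 in ragweed lungs at 72 h, against 412 and 501 in PBS lungs. All 8 were above the floor of 292, the groups did not overlap at either time, and their order was opposite at the 2 times: 0.24 ± 0.22 at 24 h (95% interval -0.27 to 0.75, adjusted p = 0.821) and -0.24 ± 0.22 at 72 h (-0.76 to 0.27, adjusted p = 0.792). On version 2 A, where 72 h alone could be compared, the samples overlapped, at 366 and 470 in ragweed lungs and 433 and 249 in PBS lungs.

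Il1b encodes IL-1β, made mainly by activated myeloid cells. Probe set 103486_at on first-version A had 341 and 295 in ragweed lungs at 24 h, against 89.4 and 232 in PBS lungs, which were both at the floor; the ragweed lungs were therefore at least 1.09-fold higher (adjusted p = 0.942). At 72 h it had 626 and 371 in ragweed lungs, against 226 and 363 in PBS lungs, a difference of 0.57 ± 0.25 (95% interval -0.01 to 1.14, adjusted p = 0.532). Version 2 A gave 633 and 553 in ragweed lungs at 72 h, against 409 and 448 in PBS lungs, a difference of 0.47 ± 0.29 (adjusted p = 0.615). Il1b was thus higher without overlap at 72 h on both versions, and on neither was it called. The 7 neutrophil markers summed to 7066 to 7227 in ragweed lungs at 72 h, against 8084 to 8600 in PBS lungs, and the 11 macrophage and monocyte markers to 43212 to 51452, against 47254 to 51362. Most of the macrophage sum was the lysozyme gene Lyz2, at 26784 and 35948 in ragweed lungs, against 41672 and 37862 in PBS lungs. The other 10 summed to 15504 to 16428 in ragweed lungs, against 9392 to 9690 in PBS lungs, and the median difference of the 11 at 72 h was 0.49, with 6 higher and 1 lower at an unadjusted p under 0.05 and 1 called higher. The macrophage markers other than Lyz2 were thus higher in sum where Il1b was higher, and the part of either cell type in the Il1b values was not tested.

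Il18 encodes IL-18, a partner of IL-12 in type 1 responses that is also stored as a precursor in epithelium. Probe set 102802_at on first-version A had 313 and 440 in ragweed lungs at 24 h, against 337 and 94.9 in PBS lungs, and the groups overlapped (0.24 ± 0.31, adjusted p = 0.878). At 72 h it had 245 and 131 in ragweed lungs, both at the floor, against 322 and 623 in PBS lungs, which were at least 1.53-fold higher (adjusted p = 0.596). On version 2 A the order at 72 h was not seen, with 437 and 251 in ragweed lungs and 377 and 266 in PBS lungs (0.07 ± 0.30, adjusted p = 0.972).

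Il1rn, the receptor antagonist, gave opposite directions on the array versions. Probe set 93871_at on first-version A had 178 and 392 in ragweed lungs at 24 h, against 194 and 225 in PBS lungs (0.21 ± 0.19, adjusted p = 0.813). At 72 h it had 128 and 275 in ragweed lungs, both at the floor, against 351 and 454 in PBS lungs, which were at least 1.37-fold higher (adjusted p = 0.502). On version 2 A the ragweed lungs of 72 h were the higher ones, at 471 and 654, against 312 and 320 in PBS lungs, a difference of 0.81 ± 0.23 (95% interval 0.28 to 1.35, adjusted p = 0.258).

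Neither Il1rn direction was called, and the 2 tables were normalized separately. The β-actin 3' to 5' ratio on version 2 A was 0.801 and 0.578 in ragweed lungs at 72 h, against 0.189 and 0.198 in PBS lungs, while on first-version A it ran from 0.798 to 0.968 over the 8 samples. Its part in the Il1rn values was not tested. Of the other Il1rn probe sets, 170250_i_at on version 2 C was above the floor in 2 of 8 samples, at 541 in 1 ragweed and 540 in 1 PBS lung of 24 h (0.00 ± 0.46). Probe set 131581_f_at, on first-version C alone and so outside the fit, was above the floor in 3 of 8, at 900 in a ragweed lung of 24 h, 1186 in a ragweed lung of 72 h and 876 in a PBS lung of 72 h. Both of these were designed from 1 expressed sequence and neither separated the groups.

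**Figure D2:**
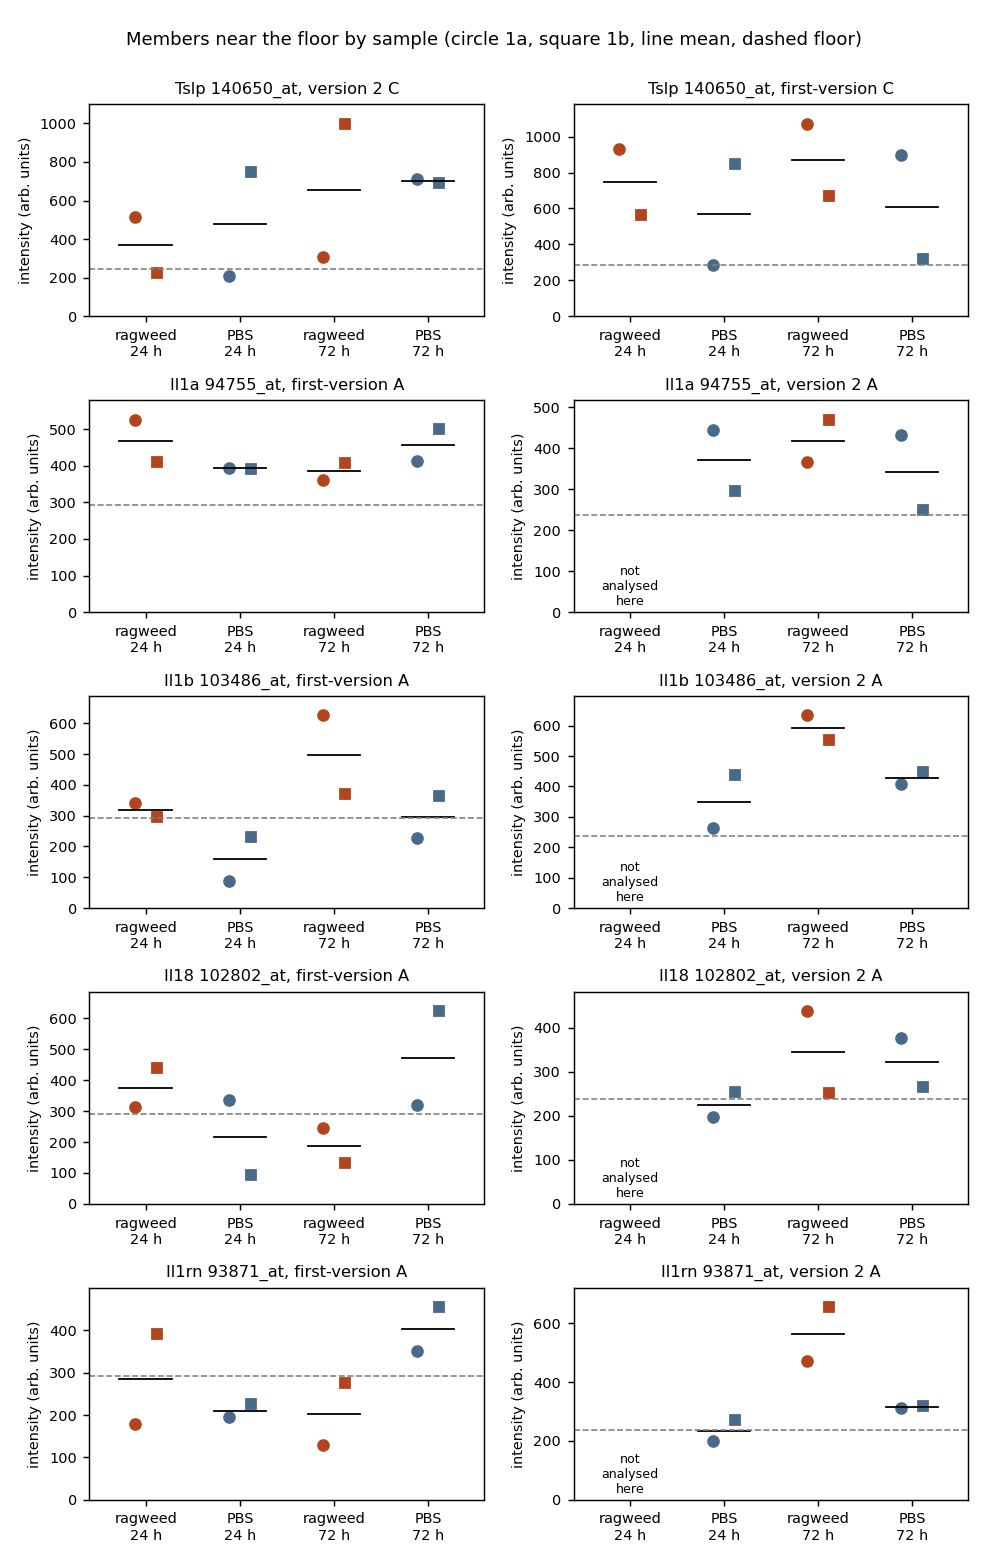
Intensity of Tslp, Il1a, Il1b, Il18 and Il1rn in each sample on the main table (left) and on the other array version (right), with circles for 1a, squares for 1b, a line at each group mean and a dashed line at the floor. Il1rn at 72 h is lower in ragweed lungs on the left (128 and 275 against 351 and 454) and higher on the right (471 and 654 against 312 and 320).

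Across the members, 4 of the 8 probe sets fitted on the main tables had both ragweed samples above both PBS samples at 24 h and 0 had both below; these 4 were both of Il33, Il1a and Il1b. Over all probe sets tested, 16.3% were higher without overlap and 17.8% lower. At 72 h 3 were higher without overlap and 3 lower, beside 18% and 17.8% over all. With 1 probe set a gene, the median difference of the 6 measured members was 0.23 at 24 h and -0.29 at 72 h, beside -0.0011 and 0 over all 12840 genes tested. These shares rest on few probe sets, and the 2 of Il33 share their sequence.

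**Figure D3:**
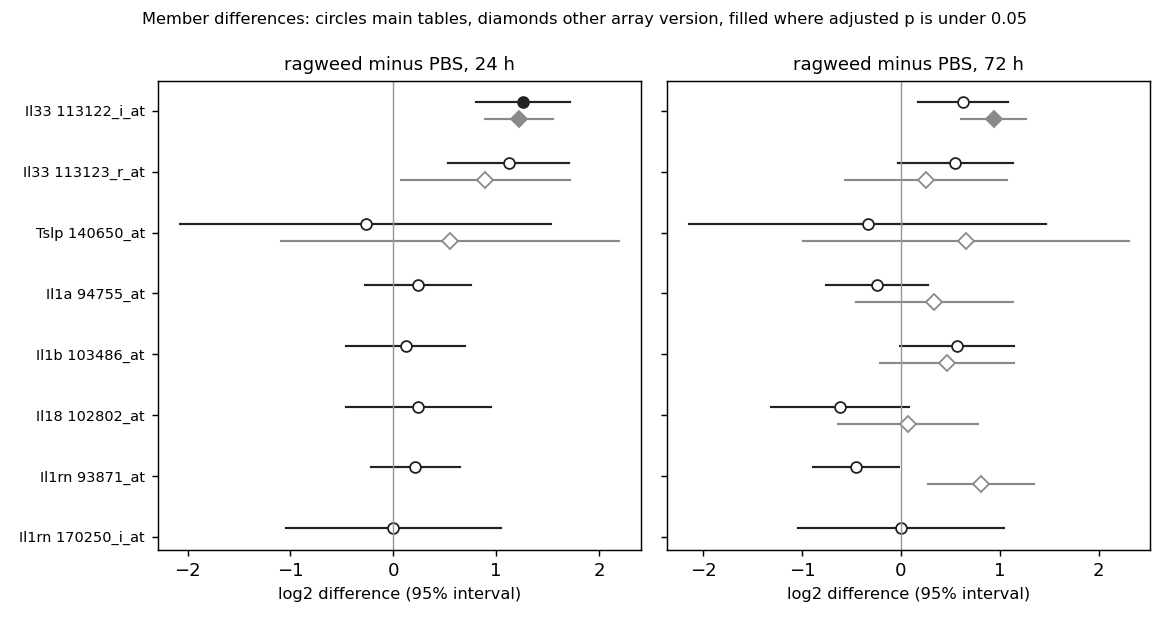
Log2 difference of ragweed minus PBS at 24 h (left) and 72 h (right) for each member probe set, with 95% intervals, on the main tables (circles) and the other array version (diamonds), filled where the adjusted p is under 0.05. Only Il33 113122_i_at has filled symbols, on both versions at 24 h (1.26 and 1.22) and on first-version B at 72 h (0.94), and the Tslp intervals are the widest.

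The genes around the members were taken from lists of the pathway. Of 11 receptors and decoys, 10 were tested and none was called at either time, with a median difference of 0.04 at 24 h and 0.31 at 72 h. Among all genes, 0.327% were called higher and 0.0389% lower at 24 h, and 0.382% and 0.273% at 72 h. Crlf2, the TSLP receptor chain, had 1185 and 626 in ragweed lungs at 24 h, against 1419 and 1273 in PBS lungs (-0.64 ± 0.49, adjusted p = 0.773), and 925 and 2313 against 1138 and 591 at 72 h (0.84 ± 0.49, adjusted p = 0.656). Il1r1, the signalling IL-1 receptor, differed by -0.04 ± 0.37 and 0.10 ± 0.37, and Sigirr, a negative regulator of the family, by -0.24 ± 0.28 and 0.02 ± 0.28 at the 2 times. Il18r1, a chain of the IL-18 receptor, differed by 0.42 ± 0.29 and -0.28 ± 0.29, and Il1rl2, the IL-36 receptor, by 0.54 ± 0.31 and 0.47 ± 0.31. The other ligands of the family were not measured above the floor: the IL-36 genes Il1f6 and Il1f8 did not pass the filter on low values, and 3 more had no annotated probe set here.

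Of the signalling chain from MyD88 to NF-kB, with the JAK and STAT genes of TSLP, 18 of 22 genes were tested and none was called, with medians of 0.15 at 24 h and -0.01 at 72 h. At an unadjusted p under 0.05, 2 were higher and 1 lower at 24 h, and 4 higher and 1 lower at 72 h. Rela, the p65 subunit of NF-kB, had 4454 and 4155 in ragweed lungs at 24 h, against 5404 and 5510 in PBS lungs, a difference of -0.34 ± 0.09 (adjusted p = 0.298), and -0.10 ± 0.09 at 72 h (adjusted p = 0.792). Nfkbia, the NF-kB inhibitor that NF-kB itself induces, differed by -0.20 ± 0.13 and -0.01 ± 0.13. The samples of Rela did not overlap at 24 h, and its difference was small beside that of Il33. Irak3 and Tab1, named after their values were seen, were higher without overlap at both times, without a call. Irak3 had 968 and 675 in ragweed lungs at 24 h, against 479.5 and 339 in PBS lungs. At 72 h it had 693 and 704, against 355 and 303. Tab1 had 502 and 897 against 273 and 333 at 24 h, and 750 and 632.5 against 140 and 242 at 72 h. The PBS values of Tab1, and those of Irak3 at 72 h, were at the floor of 356.

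Of 12 genes of the inflammasome and of IL-1 maturation, 7 were tested and none was called, with medians of 0.22 at 24 h and 0.21 at 72 h. Nlrp3, the sensor that assembles an inflammasome, had 2748 and 2642 in ragweed lungs at 24 h, against 4510 and 5352 in PBS lungs, a difference of -0.87 ± 0.22 (adjusted p = 0.271); at 72 h it had 4935 and 3452 against 5352 and 4741 (-0.29 ± 0.22, adjusted p = 0.748). Pycard, its adaptor, was at 801 and 803 in ragweed lungs at 24 h, against 574 and 385 in PBS lungs (0.77 ± 0.44, adjusted p = 0.705), and Gsdmd, which forms the pore through which IL-1β leaves the cell, at 1400 and 1633 against 920 and 1096 (0.59 ± 0.24, adjusted p = 0.519). Nlrp3 thus lay below PBS, and Pycard and Gsdmd above it, without overlap and without a call. Casp1, the caspase itself, named after its values were seen, overlapped at 24 h, at 407 and 269 in ragweed lungs and 290.5 and 300.3 in PBS lungs.

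Of 20 NF-kB targets that IL-1 induces, 11 were tested. At 24 h 1 was called higher, Saa3, an acute-phase serum amyloid made in the lung by epithelium and macrophages. It had 7462 and 6376 in ragweed lungs at 24 h, against 2207 and 2148 in PBS lungs, and 1971 and 2053 against 1603 and 1720 at 72 h. The rise at 24 h was 1.66 ± 0.12 (adjusted p = 6.97e-04) and was called in all 19 alternatives that tested it. None of these was a repeat hybridization, because Saa3 was read on first-version A and version 2 A was analysed without ragweed at 24 h. The PBS arrays of 24 h were deposited there at trimmed means of 238 and 244, against 793 and 794 for ragweed, so scaling and treatment cannot be told apart. The difference at 72 h was 0.28 ± 0.12 (adjusted p = 0.506), and the ragweed lungs of 72 h minus those of 24 h gave -1.78 ± 0.12 (adjusted p = 0.0022), a call that was lost without either ragweed sample of 72 h (adjusted p = 0.0855 without 1a and 0.063 without 1b). The list's medians were -0.01 at 24 h and 0.28 at 72 h, and Icam1 (-0.01 ± 0.15), Sod2 (0.18 ± 0.31) and Nfkb2 (0.24 ± 0.27) were not called at 24 h. At an unadjusted p under 0.05, 2 targets were higher and 1 lower at 24 h, and 2 higher and 0 lower at 72 h. Ccl2, also on first-version A and named after its values were seen, was called at neither time. It had 515 and 549 in ragweed lungs at 24 h, against 31.6 and 18.1 in PBS lungs. At 72 h it had 333 and 395.5, against 113 and 62.3. Its PBS values of both times were at the floor of 292.

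**Figure D4:**
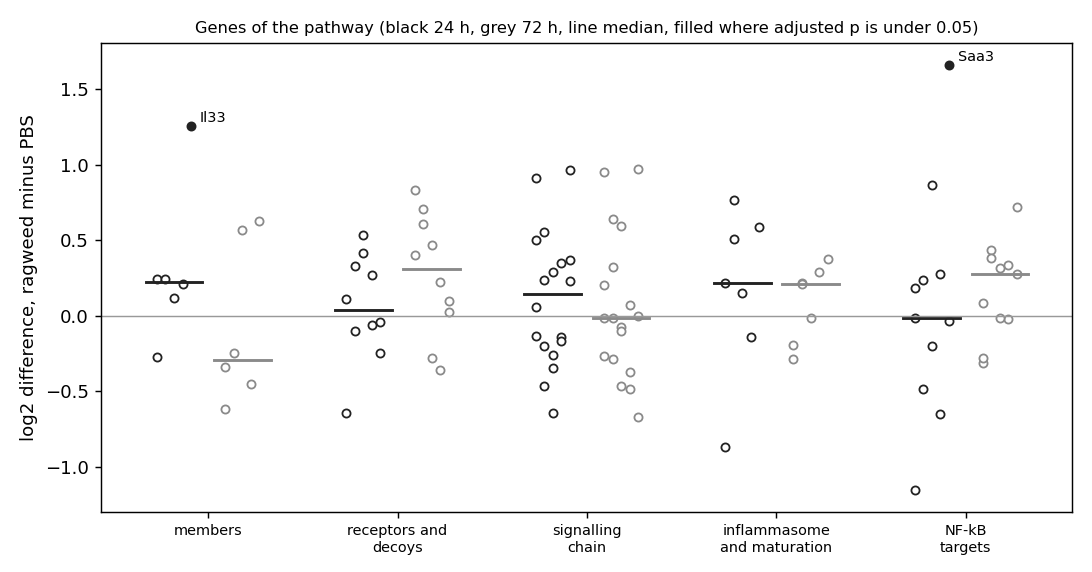
Log2 difference of ragweed minus PBS for each tested gene of 5 lists at 24 h (black) and 72 h (grey), with a line at each list's median, filled where the adjusted p is under 0.05. Il33 at 1.26 and Saa3 at 1.66, both at 24 h, are the filled points, and the medians lie between -0.29 and 0.31.

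Genes of the cells that IL-33 acts on did not pass the test. Of 16 genes of ST2-bearing lymphocytes and their products, 8 were tested and none was called, with medians of -0.08 at 24 h and 0.19 at 72 h; Il4 and Il13 did not pass the filter on low values. Gata3, the transcription factor of Th2 cells and group 2 innate lymphoid cells, differed by -0.16 ± 0.29 at 24 h and by 0.60 ± 0.29 at 72 h (adjusted p = 0.930 and 0.567). Of 11 mast cell markers, 7 were tested and none was called, with medians of 0.14 at 24 h and 0.24 at 72 h. At 72 h, 1 was higher and 1 lower at an unadjusted p under 0.05. Kit had 1183 and 1246 in ragweed lungs at 72 h, against 1510 and 1478 in PBS lungs. Hdc, which makes histamine, differed by 0.36 ± 0.14 and 0.56 ± 0.14 (adjusted p = 0.530 and 0.216), and Ms4a2, the β chain of the IgE receptor, by 0.31 ± 0.37 and 0.24 ± 0.37. None of 7 tested neutrophil markers of 12 was called, and of 11 tested macrophage markers of 14 only Mpeg1 was, at 72 h (1.38 ± 0.23, adjusted p = 0.0498). That call was lost on leaving out any 1 sample, with differences of 1.32 to 1.44. Over all 20 alternatives the Mpeg1 difference ran from 0.075 to 1.75 and was called in 5, so its size was not fixed by these data. Mrc1, the macrophage mannose receptor, was called for the mean of both times (1.27 ± 0.19, adjusted p = 0.0316), a call also lost without any 1 sample (adjusted p of 0.0771 to 0.166).

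The genes whose log2 values ran most like a member's over the 8 samples were found among the single-gene probe sets of the same table, and are given as a description. They were picked over the same samples, so their differences between groups follow in part from that choice and are no separate evidence. For Il33 113122_i_at they were Gatm, an enzyme of creatine synthesis (r = 0.967), Csf2rb, the shared β chain of the IL-3, IL-5 and GM-CSF receptors (r = 0.954), and Fth1, the ferritin heavy chain (r = 0.952), among 8086 compared. At 24 h these 3 differed by 1.75 ± 0.21 (adjusted p = 0.00488, up to 0.132 without 1 sample), 0.93 ± 0.19 (adjusted p = 0.114) and 1.10 ± 0.22 (adjusted p = 0.101). For 113123_r_at they were Camk2g, Fth1 and Aff4, with r of 0.952 to 0.958, so Fth1 stood in both sets. For Tslp they were Prss42 (r = 0.951), B130055M24Rik and Mustn1, and for Il1b Cd72 (r = 0.966), Padi4 and Hspa1l. For Il1a they were Pcid2, Vnn1 and Serpina6, for Il18 Rps20, Gata6 and Hrh1, and for Il1rn 93871_at Igkv6-14, Prrc2a and Zfp316; values at the floor, which all such genes share, enter the likeness of Il1b, Il18, Il1rn and Tslp.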

How the data were processed

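The deposited values are linear intensity, 1 per probe set and array, from 47 arrays of 8 samples; the software behind them is not stated by any source used here. One ragweed array of 24 h without a letter (first-version A) was a copy of the 1a array at a scale 2.63 times lower and was not counted, which leaves 46. Affymetrix control probe sets were set apart. First-version tables were restricted to probe set IDs shared with version 2, brought to a trimmed mean of 800 (2% trimmed) and then quantile normalized as log2 values; version 2 tables kept the deposited intensity scale. A probe set was tested if 2 or more arrays of its table exceeded the floor, 25250 on the main tables and 19312 on the other version. Groups were compared with limma 3.58.1 in R 4.3.3 (trended eBayes, 4 groups in 1 fit per table), with p-values adjusted over the tables together. Symbols came from GEO's platform annotation, updated by gene ID through RefSeq; of all table entries, 53043 had 1 symbol, 1654 several and 19824 none here. A gene in a list was its probe set on A before B before C, then the brightest. Named were all member probe sets, called list genes, up to 6 further pathway or 4 further marker genes by mean intensity, and the 3 genes most correlated with each member. Some further list genes were named after their values were seen. Precision is limited by the number of arrays. The members and lists were chosen with earlier results of these data known.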

Additional observations from a re-analysis of the deposited data

Results flagged for a closer look

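One result was flagged because its direction differed between the times. Il1a (94755_at, first-version A) was higher in both ragweed samples than in both PBS samples at 24 h (526 and 411 against 395 and 392) and lower in both at 72 h (361 and 408 against 412 and 501). The difference of the ragweed effects, 72 h minus 24 h, was -0.48 ± 0.32 (95% interval -1.21 to 0.24) and was not called (adjusted p = 0.792). Over all probe sets, 0.0356% were called in that comparison. Without overlap, 16.3% of all were higher at 24 h and 17.8% lower at 72 h, and the share that did both was not counted. On version 2 A the 72 h difference was 0.34 ± 0.34, with overlapping samples.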

How the results depend on the processing

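The Il33 rise at 24 h (113122_i_at) kept its direction in all 20 alternatives and was called in 8. With the floor at the 20th percentile 0 members were called and the 1.26 of Il33 had an adjusted p of 0.0549; with no filter on low values (0 members, 121 probe sets called in all, against 58) its p was 0.174; adjusted within each table (0 members, 91 in all) 0.0896; and without the mean-variance trend (0 members) 0.171. The mean of both times, 0.94, was also not called with no filter (adjusted p = 0.106), within each table (0.0679) or without the trend (0.101), with 0 members called in each. The other array version called 4 probe sets at 24 h, and at 72 h 85 and 1 member, Il33 at 0.94; at 72 h 80 were called without the trend, against 133, 236 with the PBS samples of 24 h and 238 with those of both times.

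Leaving out 1 sample gave 22 to 204 calls at 24 h and 2 to 59 at 72 h, with 0 members in each comparison. Il33 then lay at 1.09 to 1.43 at 24 h, 0.42 to 0.83 at 72 h and 0.84 to 1.05 for the mean; Tslp ran from -1.08 to 0.54 and from -1.18 to 0.51, Il18 at 24 h from -0.0023 to 0.49 and Il1rn 170250_i_at at 24 h from -0.57 to 0.57. Reversals of members were all of uncalled values. The called values that reversed were those of Krt13, Krt4, Cyp2f2 and Acta1, given below, and the cause was not tested. On the other array version at 72 h Il1rn was 0.81, Il1a 0.34, Il18 0.067 and Tslp 0.66, and Tslp at 24 h 0.55. Averaging the versions of B and C, chosen after seeing the data, gave Tslp 0.087 and 0.16; the floor at the 60th percentile gave it 0.091 at 72 h, PBS of 24 h 0.38 and PBS of both times 0.020. With PBS of 72 h, 24 h values were -0.27 for Il18, -0.036 for Il1b and -0.24 for Il1rn, and with PBS of both times -0.014 for Il18 and -0.013 for Il1rn. Quantile normalization of version 2 gave -0.033 for 170250_i_at at 24 h. With PBS of 24 h the squamous genes Krt13 and Krt4, at -1.40 and -1.47 at 72 h, gave 0.19 and 0.28, and the club cell gene Cyp2f2, at -0.81, gave 0.87, with 0.029 against PBS of both times and 0.20 on the other array version. With PBS of 72 h Cyp2f2 at 24 h, at 0.65, gave -1.03 (-0.19 with PBS of both times) and Acta1, at 1.64, gave -0.30. Leaving out 1 sample ended the calls of Krt13 and Krt4 in 4 of 8 fits each, of Lce3a in 7 and of Sbsn in all 8.

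Same-lettered samples deviated together at r of -0.08 to 0.13 over pairs of groups, so the letters do not pair the samples. With the replicate block the Il33 rise at 24 h was 1.26 (adjusted p = 0.0465), and 58 and 90 probe sets were called at 24 h and 72 h. With 2 samples a group, the version 2 intervals of Tslp passed 1 on the log2 scale in both directions, and where all samples of a group were at the floor, as for Il1b, Il18 and Il1rn, the difference is a bound.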
